A study of Homo sapiens with 16 samples.

Results

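AHDC1 and the genes that lie next to it on the short arm of chromosome 1 were followed across 16 RNA-seq libraries of 4 human clear cell renal cell carcinoma (ccRCC) lines. The 8 genes, out of 57773 rows of the count table, were WASF2, AHDC1, FGR, FAM76A, STX12, PPP1R8, THEMIS2 and RPA2 in chromosome order. AHDC1 was chosen by its own sgKDM5C values, as one of the genes that were lower on average over the 4 lines, so these values are a description and carry no test. The 7 neighbours were listed by position. The question was whether the lower level of AHDC1 in sgKDM5C cells was shared by the genes around it.

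The lines (A498, CAKI-2, 769-P, 786-O) are established from human kidney carcinoma. Cells had received Cas9 and a guide RNA from a lentivirus, and the mutant cells were puromycin-selected populations rather than single clones. All groups, controls included, carried this vector: sgCtrl cells had a non-targeting guide (1 library per line), sgKDM5C cells had guide 4 or guide 5 against KDM5C (2 libraries per line), and sgKDM5D cells had guide 2 or guide 4 against KDM5D (2 libraries in 786-O and 2 in CAKI-2). The labels give no separate cultures per guide, so the spread between libraries includes both guide and library differences, and each control is a single library.

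KDM5C removes methyl groups from lysine 4 of histone H3, a mark found at active promoters, and KDM5D is its paralog on the Y chromosome. AHDC1 encodes a DNA-binding protein with AT-hook motifs, and mutations in it cause a developmental disorder, Xia-Gibbs syndrome. Its neighbours have unrelated roles, among them actin assembly, endosome fusion, phosphatase control and DNA replication. A change that follows position along the chromosome would be seen in such neighbours whatever their function.

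In GRCh37 coordinates AHDC1 lies on chromosome 1 at 27860546 to 27930942 on the minus strand. WASF2 is the gene on its lower side, with 43.9 kb between them. FGR lies 7.6 kb away on the other side, beyond the AHDC1 start, and is followed by FAM76A at 121.5 kb, STX12 at 168.8 kb, PPP1R8 at 226.4 kb, THEMIS2 at 268.1 kb and RPA2 at 287.1 kb. AHDC1, FGR, WASF2 and RPA2 are read from the minus strand, and FAM76A, STX12, PPP1R8 and THEMIS2 from the plus strand. IFI6, an interferon-induced gene that is not one of the 8, lies between FGR and FAM76A. No annotated gene shared bases with AHDC1. The genes that overlapped WASF2, FAM76A, STX12 or PPP1R8 had at most 3 counts in any library.

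The promoter of AHDC1 is shown beside that of FAM76A, the nearest of its tested neighbours with a promoter in the RefSeq table, since both are rich in CpG and the genes had different values in sgKDM5C cells. Each line gives the 250 bases before the start in GRCh38.p14 (RefSeq), read 5′ to 3′ on the strand of the gene, with each CpG (the letters CG, which read the same on both strands) in capitals. AHDC1 is chr1:27604145-27604394, minus strand, and FAM76A is chr1:27725711-27725960, plus strand.
AHDC1: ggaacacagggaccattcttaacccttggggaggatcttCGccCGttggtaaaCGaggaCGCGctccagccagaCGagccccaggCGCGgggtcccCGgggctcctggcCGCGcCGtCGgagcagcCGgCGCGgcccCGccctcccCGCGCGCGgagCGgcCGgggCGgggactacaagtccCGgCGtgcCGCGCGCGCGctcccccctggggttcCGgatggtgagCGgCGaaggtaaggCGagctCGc
FAM76A: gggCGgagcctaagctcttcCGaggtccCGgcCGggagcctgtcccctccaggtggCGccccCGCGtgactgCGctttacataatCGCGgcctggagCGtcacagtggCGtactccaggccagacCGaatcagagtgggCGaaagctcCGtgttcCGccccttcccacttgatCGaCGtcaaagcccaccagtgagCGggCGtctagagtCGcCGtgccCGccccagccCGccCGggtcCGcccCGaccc
The AHDC1 window held 36 CpG and the FAM76A window 27, against a median of 11 over the 35116 promoters of the table. Promoters with at least 36 CpG made up 4.9% of the table, and those with at least 27 made up 17.7%. A second AHDC1 promoter had 26 CpG, STX12 had 19, PPP1R8 had 15, THEMIS2 had 26 and the FGR promoters had 15 and 4. Promoters of 6 of the 8 genes were matched. No chromatin or methylation values were used here, so the counts of CpG describe the sequence alone.

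Libraries held 23398449 to 41617439 counts each. KDM5C itself, the targeted gene, was lower than the control of the line in all 8 sgKDM5C libraries, at 26.2% to 57.3% of the control level. The kidney markers PAX8, KRT8 and VIM were present in every library, while CA9 and NDUFA4L2 were at 0 counts in at least 1 library. Blood cell markers were near 0 except ITGAM, which reached 27.4 CPM. Over the 13422 genes that averaged 50 counts or more, the 2 sgKDM5C libraries of 786-O stood farthest apart, with a root mean square log2 difference of 0.57 between guides, against 0.25 to 0.47 for the other pairs. Values without either library are given below where they bear on AHDC1.

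AHDC1 is given in CPM, the gene's count as a share of the scaled library total. In 786-O it was at 76.9 CPM in sgCtrl, and at 41.8 and 38.7 CPM with sgKDM5C guides 4 and 5. In CAKI-2 it was at 17.9 CPM in sgCtrl, and at 7.81 and 9.31 CPM with the sgKDM5C guides. Both mutant libraries lay below the control in each of these lines, by a margin larger than the gap between the guides. In A498 the control was at 66.7 CPM and the sgKDM5C libraries at 41.1 and 45.9 CPM. In 769-P the control was at 18.9 CPM and the sgKDM5C libraries at 12.2 and 13.8 CPM. The order of mutant and control was the same in A498 and 769-P, where mutant libraries were at 61.7% to 72.9% of the control level, compared with 43.5% to 54.4% in 786-O and CAKI-2.

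**Figure D1:**
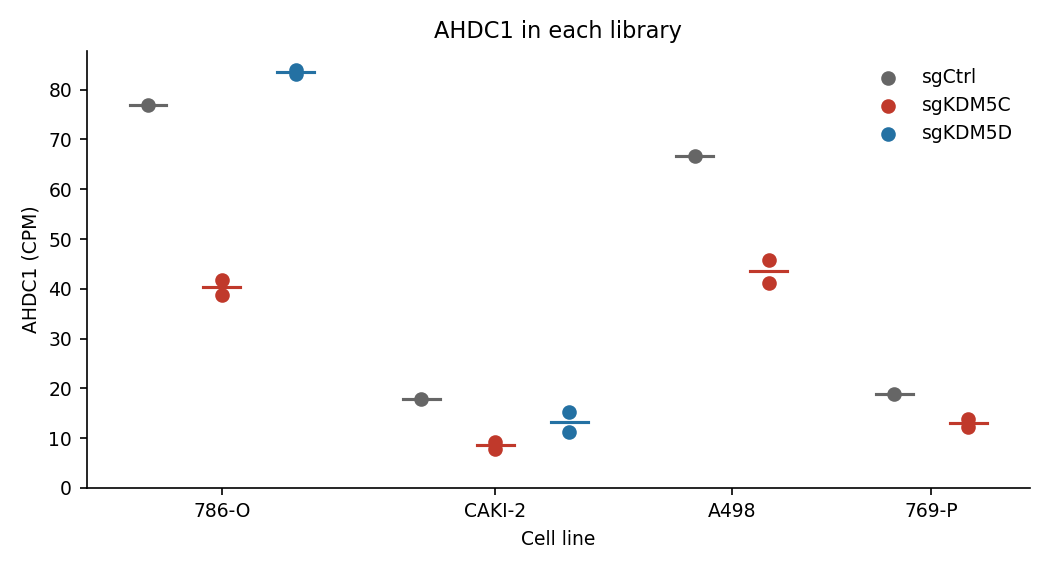
AHDC1 in CPM (y axis, from 0) in each of the 16 libraries, grouped by cell line and coloured by genotype. Points are libraries and short bars are group means. In every line both sgKDM5C points lie below the sgCtrl point, while the sgKDM5D points of 786-O lie above it.

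Averaged over the 4 lines, AHDC1 was lower by 42.1% in sgKDM5C cells (log2 fold change -0.79, SE 0.10, 95% interval -1.002 to -0.576). In bulk RNA, fewer cells with the transcript and less of it per cell cannot be told apart. Taken by line, CAKI-2 had a log2 fold change of -1.06 (SE 0.20), 786-O of -0.93 (SE 0.19), A498 of -0.62 (SE 0.19) and 769-P of -0.54 (SE 0.20). The 95% intervals of the 4 lines overlapped. AHDC1 was lower in 8 of 8 sgKDM5C libraries, a pattern that 1.67% of the 20175 genes tested had, and 52 of those genes, AHDC1 among them, had a mean fold change at least as low as that of AHDC1. The rule that chose AHDC1 used these libraries, so nothing is read from this share. The mean without 786-O guide 4 was -0.80, and without 786-O guide 5 it was -0.77. The transcript of AHDC1 is GC-rich (64.3% over its exons, the highest of the 8 genes), and after a GC trend was removed from each library its mean log2 fold change was -0.66.

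In sgKDM5D cells AHDC1 differed between the 2 lines measured. In 786-O it was at 84.0 and 83.1 CPM, above the control library, with a log2 fold change of 0.12 (95% interval -0.31 to 0.54). In CAKI-2 it was at 15.3 and 11.2 CPM, below the control, with a log2 fold change of -0.44 (95% interval -0.87 to -0.003). The CAKI-2 guides were far apart, by 0.44 on the log2 scale, where the 786-O guides differed by 0.016. Set directly against sgKDM5D, sgKDM5C cells had less AHDC1 in both lines, with log2 fold changes of -1.05 (SE 0.16) in 786-O and -0.63 (SE 0.17) in CAKI-2. These comparisons share libraries with the one that chose AHDC1 and are given without a test.

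None of the 6 neighbours that had enough counts to be tested passed the threshold in the mean effect of sgKDM5C. With the edgeR quasi-likelihood test, 0 of 6 were called at an adjusted p under 0.05, 0 of 6 had an unadjusted p under 0.05, and DESeq2 called 0 of the 5 for which it gave an adjusted p. Over all genes, edgeR called 0.00991% in this comparison and DESeq2 0.225%, and 1046 of 20175 had an unadjusted edgeR p under 0.05. The edgeR count of 2 genes was 34 without 786-O guide 5, 5 without 786-O guide 4 and 0 without CAKI-2 guide 4, either A498 guide or 769-P guide 4. The median log2 fold change of the 6 neighbours was 0.07, against 0.04 over all genes tested. No neighbour was lower in all 8 sgKDM5C libraries, a pattern that only 1.67% of all 20175 genes tested had.

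WASF2, which encodes WAVE2, an activator of actin branching through the Arp2/3 complex, is the neighbour on the lower side and the most abundant of the 8 genes. In 786-O it was at 380 CPM in sgCtrl and at 378 and 366 CPM in sgKDM5C cells. In CAKI-2 the control was at 248 CPM and the mutants at 226 and 216 CPM, and in A498 the control was at 129 CPM and the mutants at 138 and 161 CPM. In 769-P the mutants, at 167 and 198 CPM, lay on either side of the control at 189 CPM. The mean log2 fold change was -0.01 (SE 0.08, 95% interval -0.19 to 0.17, adjusted p = 0.9999). In linear terms the interval ran from 12.3% lower to 12.5% higher, and the value of AHDC1 lay outside it.

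RPA2, a subunit of the replication protein A complex that coats single-stranded DNA, is the farthest of the 8 genes and had the smallest spread between guides (SD 0.04 on the log2 scale). Its sgKDM5C libraries were at 82.8 and 75.3 CPM in 786-O against 75.3 CPM in the control, and at 34.8 and 34.1 CPM in CAKI-2 against 33.1 CPM. In A498 they were at 18.2 and 17.8 CPM against 16.3 CPM, and in 769-P at 31.9 and 32.4 CPM against 32.8 CPM. No library was more than 0.16 from its control on the log2 scale. The mean log2 fold change was 0.06 (SE 0.08, 95% interval -0.11 to 0.23, adjusted p = 0.94).

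PPP1R8 encodes NIPP1, a nuclear inhibitor of protein phosphatase 1. Its log2 ratios to the control ran from -0.27 to 0.31 over the 8 sgKDM5C libraries, with 7 of 8 above 0. The mean log2 fold change was 0.09 (SE 0.09, 95% interval -0.11 to 0.28, adjusted p = 0.92). STX12, an endosomal SNARE protein of membrane fusion, ran from -0.15 to 0.43 with 5 of 8 above 0. Its mean log2 fold change was 0.09 (SE 0.11, 95% interval -0.14 to 0.32, adjusted p = 0.93). FAM76A, whose function is little known, had fewer counts (58 to 262 per library) and ran from -0.06 to 0.54, with 6 of 8 above 0. Its mean log2 fold change was 0.21 (SE 0.15, 95% interval -0.12 to 0.54, adjusted p = 0.90). The intervals of these 3 genes, like those of WASF2 and RPA2, did not reach the -0.79 of AHDC1. AHDC1 was chosen for a low value, its own interval reached -0.58, and its difference from each neighbour was not tested. Falls smaller than that of AHDC1 lay inside the neighbour intervals, down to -0.19 for WASF2.

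**Figure D2:**
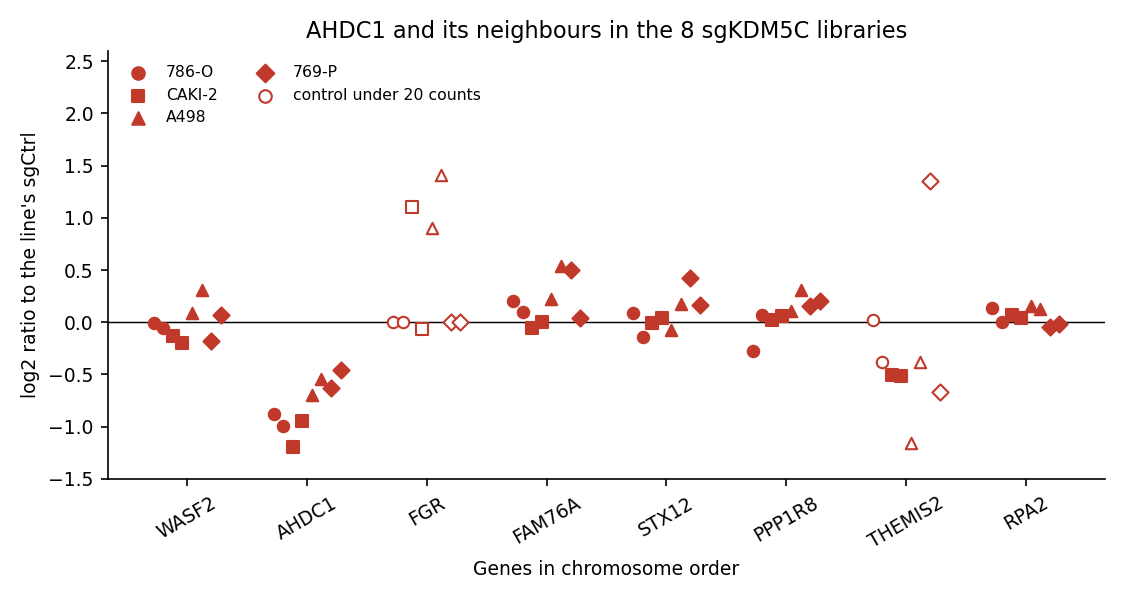
log2 ratio of each sgKDM5C library to the sgCtrl library of its line (y axis) for the 8 genes in chromosome order (x axis). Marker shape gives the line and open markers have fewer than 20 counts in the control. All 8 AHDC1 points lie below 0, between -1.19 and -0.45, while the filled points of the other genes lie on both sides of 0, except for THEMIS2, whose filled points are the CAKI-2 libraries alone, and FGR, which has none.

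FGR and THEMIS2 gave little or no information on the question. FGR, a SRC family kinase of myeloid cells, is the gene nearest to AHDC1 and had 30 counts in all 16 libraries together, too few to be tested. It had 0 counts in every 786-O and 769-P library, which allows up to 0.119 CPM in the shallowest of these (3 counts, for counting error only). In A498 it had 3 counts in the control and 8 and 12 counts in the sgKDM5C libraries, and in CAKI-2 it had 0 to 4 counts. No fold change is given for values this close to 0.

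THEMIS2, a signalling adaptor of B cells and macrophages, was expressed in CAKI-2 and had at most 9 counts in any library of the other lines. There it was at 12.7 CPM in sgCtrl, at 8.97 and 8.89 CPM in sgKDM5C cells and at 9.24 and 8.84 CPM in sgKDM5D cells. The 4 mutant libraries were close to each other and lay below the single control. The log2 fold change in CAKI-2 was -0.51 for sgKDM5C (SE 0.38, adjusted p = 1) and -0.49 for sgKDM5D (SE 0.38, adjusted p = 1), and both used the same control library. The mean over the 4 lines was -0.12 (SE 0.62, 95% interval -1.44 to 1.21, adjusted p = 0.9999), an interval that holds the value of AHDC1. Blood cell markers summed to 19.5 to 27.7 CPM in CAKI-2, most of it ITGAM, and to 0.331 to 4.43 CPM in the other lines, with PTPRC at no more than 2 counts and CD3E and MS4A1 at 0 in every library. The part of such cells in the THEMIS2 level was not tested. In CAKI-2, where THEMIS2 had 237 to 466 counts, its 95% interval for sgKDM5C was -1.32 to 0.30 and held the -1.06 of AHDC1 in that line. A change of the size seen for AHDC1 was therefore not excluded for THEMIS2, and could not be assessed for FGR.

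Single lines gave little power. In the sgKDM5C comparisons, edgeR called 0 of 6 neighbours in each line, but it called neither AHDC1 nor the targeted gene KDM5C in any line (smallest adjusted p for KDM5C 0.206, in 786-O), so these counts of 0 are no support. No neighbour had an unadjusted p under 0.05. Of all 20175 genes, at most 1119 (for A498) had such an edgeR p in any of these comparisons, so this 0 is no support either. DESeq2 called none of the 4 to 6 neighbours for which it gave an adjusted p. Among all genes the share called was 0.00496% for A498, 0.00496% for 769-P, 0.00991% for 786-O and 0% for CAKI-2 with edgeR, and 0.419%, 0.0397%, 0.152% and 0.0198% in the same order with DESeq2. The same count of 0, with none at an unadjusted p under 0.05 and none by DESeq2, was obtained for sgKDM5D against sgCtrl (0% of genes called by either tool for CAKI-2, and 0.0149% by edgeR and 0.0297% by DESeq2 for 786-O) and for sgKDM5C against sgKDM5D (0% by edgeR and 0.204% by DESeq2 for CAKI-2, 0.0644% and 0.355% for 786-O). The sgKDM5C effect on the neighbours did not pass a test of its difference between the 4 lines, where the smallest unadjusted p was 0.49, and 0% of genes were called by edgeR and 0.146% by DESeq2. In the sgKDM5D comparisons and this test, 156 to 964 of all 20175 genes had an unadjusted edgeR p under 0.05. A p that misses the threshold does not show that the effects were alike.

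The wider surroundings were taken as all 48 annotated genes that lie wholly within 500 kb of either end of AHDC1, of which 20 had enough counts to be tested. No gene of this window was called by edgeR in the mean effect, and none had an unadjusted p under 0.05. Their median log2 fold change was -0.004, and no gene that averaged 20 counts or more was beyond 0.5 in size. Among the 47 genes tested within 1 Mb, 0 were called and 0 had an unadjusted p under 0.05. Over all 20175 genes tested, edgeR called 2, and 1046 had an unadjusted p under 0.05. IFI6, at 61.6 kb from AHDC1, had a mean log2 fold change of 0.30 (SE 0.30, adjusted p = 0.92). Its 786-O libraries differed most, with 76.3 CPM for sgKDM5C guide 4, 16.02 CPM for guide 5 and 27.4 CPM in the control.

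**Figure D3:**
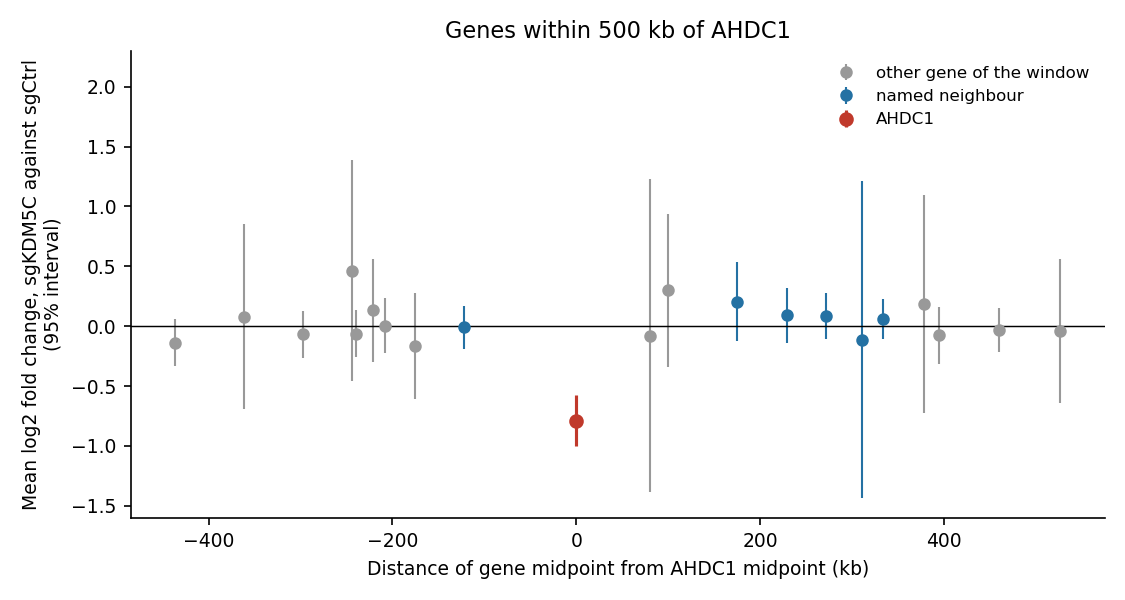
Mean log2 fold change of sgKDM5C against sgCtrl with its 95% interval (y axis) for AHDC1 and the 20 tested genes within 500 kb, by the distance of their midpoints from that of AHDC1 in kb (x axis). AHDC1 is at -0.79, and the points of the other genes lie between -0.17 and 0.46.

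Genes that work with the neighbours or share the AT-hook motif with AHDC1 were set beside them. Of 41 such genes found in the table, 39 were tested, 0 were called by edgeR in the mean effect, 0 had an unadjusted p under 0.05 and their median log2 fold change was 0.07. Over all 20175 genes tested, 2 were called, 1046 had an unadjusted p under 0.05 and the median was 0.04. The 12 AT-hook genes, which include HMGA1 and KMT2A, lay between -0.08 and 0.18. The 7 genes of the WAVE complex, to which WASF2 belongs, lay between 0.02 and 0.18, and the 6 endosomal SNARE genes between -0.03 and 0.22. The 6 tested SRC family kinases, relatives of FGR, spread more widely, from -0.34 to 0.79, and the 4 protein phosphatase 1 genes lay between -0.08 and 0.34. FAM76B was at 0.13 and GRB2, a partner of THEMIS proteins, at 0.03. RPA1 and RPA3, the other subunits of replication protein A, were at -0.004 and 0.11.

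The genes also differed between lines, as did most genes. Differences between lines, taken over the sgCtrl and sgKDM5C group means, were called for 63.3% of all genes between 786-O and CAKI-2, 68.7% between 786-O and A498, 50% between 786-O and 769-P, 65.8% between CAKI-2 and A498, 63.8% between CAKI-2 and 769-P and 69.9% between A498 and 769-P. Against this background, WASF2 was called in 6 of 6 pairs of lines, PPP1R8 and RPA2 in 5, AHDC1, FAM76A and THEMIS2 in 4 and STX12 in 3, which is 31 of 42 tests or 73.8%. The AHDC1 calls among these use the sgKDM5C values that chose it and are a description. FGR was not tested. Per kb of exon, WASF2 was the highest of the 8 genes in the sgCtrl library of every line, at 22.8 CPM per kb for A498, 33.3 for 769-P, 43.7 for CAKI-2 and 67.1 for 786-O.

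AHDC1 was high in 786-O and A498 and low in 769-P and CAKI-2. In the sgCtrl libraries its level was 9.27 CPM per kb for 786-O, 8.04 for A498, 2.28 for 769-P and 2.16 for CAKI-2. The differences below are over the sgCtrl and sgKDM5C group means, so the sgKDM5C values that chose AHDC1 enter them. On this measure the 786-O and A498 levels did not differ beyond their spread (log2 difference 0.05, 95% interval -0.25 to 0.35, edgeR adjusted p = 0.79). Nor did CAKI-2 and 769-P pass the threshold (log2 difference -0.34, 95% interval -0.65 to -0.03, edgeR adjusted p = 0.056). In sgCtrl alone AHDC1 was at 76.9 CPM in 786-O and 66.7 in A498, and at 17.9 CPM in CAKI-2 and 18.9 in 769-P. On the group means the gap between these pairs was large, with a log2 difference of 2.16 between 786-O and CAKI-2 (SE 0.15, edgeR adjusted p = 2.17e-08).

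In the sgCtrl libraries, the tested neighbours had other orders, though all of them but THEMIS2 were highest in 786-O, as AHDC1 was. RPA2, PPP1R8, WASF2 and STX12 were lowest in A498, and FAM76A in 769-P. Over the sgCtrl and sgKDM5C group means, the RPA2 level of 786-O exceeded that of A498 by a log2 difference of 2.17 (SE 0.12, edgeR adjusted p = 1.24e-09). On the same means its levels in CAKI-2 and 769-P differed by 0.06 (95% interval -0.18 to 0.29, edgeR adjusted p = 0.68). THEMIS2 was highest in CAKI-2, one of the lines with low AHDC1. Its log2 difference of 786-O from CAKI-2 on the group means was -5.22 (SE 0.39, edgeR adjusted p = 4.66e-08).

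**Figure D4:**
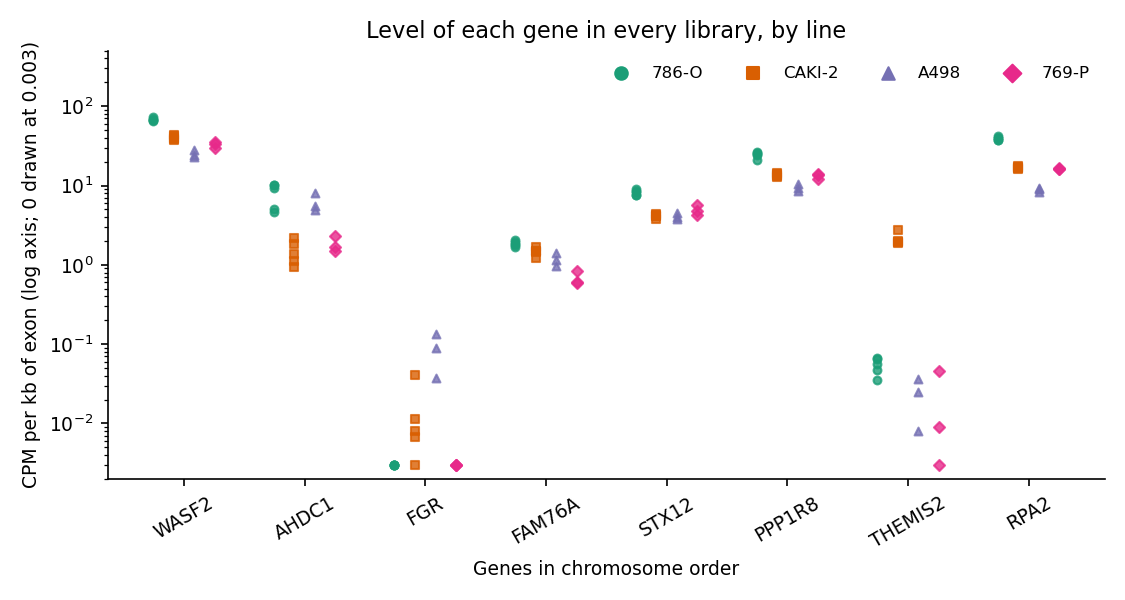
Level of the 8 genes in CPM per kb of exon (log axis, values of 0 drawn at 0.003) in every library, coloured by line. WASF2 is the highest gene in each line, THEMIS2 stands above 1 CPM per kb in CAKI-2 alone, and FGR is at or near 0 in all lines.

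Within lines, the genes whose levels followed AHDC1 most closely were not among the neighbours that could be compared. The measure was Pearson's r of log2 CPM centred on the mean of each line, over 16 libraries and the 11349 genes that averaged 5 CPM or more, as a description. FGR and THEMIS2, at means of 0.07 and 3.16 CPM, fell below this limit and were not compared. The 4 highest were FAM117A (r = 0.92), PHETA1 (0.88), KDM5C (0.88) and ZKSCAN3 (0.87). WASF2 had an r of 0.37, PPP1R8 of -0.09, STX12 of -0.21, FAM76A of -0.35 and RPA2 of -0.44. The points share their controls and the sgKDM5C groups that chose AHDC1, so a gene that is lower in sgKDM5C cells for any reason ranks high here.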

How the data were processed

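RNA was extracted with NucleoSpin kits and sequenced as TruSeq Stranded paired-end libraries. The deposited values were raw counts per gene, which the authors made after trimming with Trimmomatic 0.38 and alignment with STAR 2.5.2b to GRCh37, per the submitters' processing notes. The counting tool, its use of strand and the annotation release are not given in the sources used here. Of 57773 rows, 55538 were matched to GENCODE release 44 lifted to GRCh37.

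Counts of all 16 libraries were fitted with edgeR 4.0.16 (R 4.3.3; TMM factors, quasi-likelihood F-test, 10 groups of line by genotype, 6 residual degrees of freedom). The test took the 20175 genes that summed to 60 counts or more, with Benjamini-Hochberg adjustment over all of them and a threshold of 0.05. Each sgCtrl group had 1 library, so the spread was estimated from groups that had 2 guides. Each SE was obtained as the fold change (log2, unsigned) over the root of its F value. A prior count of 2 went into the ratio of each library to its control. DESeq2 1.42.0 was an alternative, and the fit was tested on simulated data.

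The genes and lists were chosen with earlier results of these data known. Named beside the 8 genes were KDM5C, IFI6, any other gene of the 500 kb window that was called or beyond 0.5 that averaged 20 counts or more (up to 5; there were none), and the 5 genes most like AHDC1, of which 1 is not reported here. Partner lists are given as ranges with examples. Promoter sequences came from RefSeq (GRCh38.p14). Guide sequences are not used here.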

Additional observations from a re-analysis of the deposited data

Results flagged for a closer look

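For some genes both libraries of one line lay above their control and both libraries of another line below it, by small margins in places: FAM76A in CAKI-2 had log2 ratios of -0.059 and -0.0005. For sgKDM5C, the difference between the effects of A498 and CAKI-2 was 0.37 on the log2 scale for WASF2 (0.21 against -0.16) and 0.42 for FAM76A (0.39 against -0.03), and the difference between A498 and 769-P was 0.17 for RPA2 (0.14 against -0.03). The edgeR test of a difference between the 4 lines gave an adjusted p of 1 for each of these genes.

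For sgKDM5D, the difference between 786-O and CAKI-2 was 0.56 on the log2 scale for AHDC1 (0.12 against -0.44) and 0.21 for WASF2 (0.08 against -0.13). For PPP1R8, CAKI-2 was 0.18 above 786-O (0.14 against -0.04). These differences were not tested.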

How the results depend on the processing

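AHDC1 stayed lower in the mean effect of sgKDM5C under all 19 alternatives. AHDC1 was chosen by these values and was lower in 8 of 8 sgKDM5C libraries, so its sign was largely set in advance. Its log2 fold change was -0.83 to -0.76 when 1 sgKDM5C library was left out, -0.87 to -0.69 when 1 line was left out, and -0.79 to -0.66 under DESeq2, other size factors, other filters on low counts, the 12 sgCtrl and sgKDM5C libraries, the replicate block and the GC correction, which was chosen after seeing the data and gave the -0.66. The count of neighbours called in the mean effect was 0 with 1 line left out and under the other fits, filters and size factors. Over all genes tested, these fits called from 0 (without the CAKI-2 or the A498 line) to 113 (no filter beyond 1 count). A count of 0 was therefore likely for any 6 genes and is no support. The neighbour counts in single lines, against sgKDM5D, for sgKDM5D and for the difference of the sgKDM5C effect between lines were 0 under each other fit, filter and set of size factors run. So were the counts for the window and partner genes, and these counts of 0 are no support either. Calls of the tested genes among the 8 for differences of level between lines numbered 30 to 34.

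The sign of 2 small effects was not stable. The WASF2 log2 fold change turned to 0.030 with the GC correction, 0.017 without A498 guide 4, 0.022 without 769-P guide 4, 0.048 without the CAKI-2 line and 0.003 without the 769-P line, and its range with 1 library left out was -0.042 to 0.022. THEMIS2 turned to 0.027 without A498 guide 4, 0.11 without 769-P guide 5 and 0.22 without the A498 line, and was -1.31 without 769-P guide 4, where these lines had at most 6 counts per library. No THEMIS2 value without the CAKI-2 line was obtained, since too few counts remained.

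The guide numbers did not pair the libraries: the correlation between lines of the difference between guides 5 and 4 ran from -0.19 to 0.25. With the guide number as a replicate block, AHDC1 was at -0.79 and 0 neighbours were called, beside 2 of the 20175 genes tested.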
